A study of Mus musculus with 8 samples.

Results

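All 8 of the 8 arrays of the series were taken by the replicate number in their titles, and numbers 1 and 3 were set against numbers 2 and 4. Each set holds 4 arrays, 2 of CD44hi and 2 of CD44lo cells. The split was selected because the measured values of these arrays fell apart along it, so the differences between the sets are given here as a description and carry no test. The samples were T cell lymphoma lines of the mouse, described as stable and Snf5-deficient. Snf5, encoded by Smarcb1, belongs to the SWI/SNF complex, which moves nucleosomes. CD44hi and CD44lo subpopulations were purified from the lines, CD44 being the hyaluronan receptor of activated and memory T cells. Both subpopulations and both sets of numbers share the Snf5 deficiency, and no array of cells that keep Snf5 was analysed here. The sources used here do not say what the numbers stand for, how many lines were used, or the strain, the age of the animals and the driver of the deletion. Whether arrays are separate cultures is therefore unknown, and p-values cover the spread among these 8 arrays alone, part of which may be technical.

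Dividing cells switch on genes of DNA synthesis through E2F factors and genes of the mitotic spindle somewhat later, and sterol and nucleotide synthesis supply the membranes and precursors that division uses. Cells short of oxygen stabilise hypoxia-inducible factor (HIF), which raises genes of glycolysis, angiogenesis and matrix modification. Protein damage activates heat shock factor and its chaperone genes, whereas amino acid shortage and other stresses act through the kinases of the integrated stress response and the transcription factor ATF4.

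Values are log2 of the deposited intensity, and a difference between sets is given on that scale. A gene was called parted when, within CD44hi and within CD44lo alike, both arrays of one set of numbers lay above both arrays of the other set in the same direction, and the set difference averaged over the subpopulations was at least 1.5-fold (0.58 on the log2 scale). Among 12393 genes, 392 (3.16%) were parted with higher values in numbers 1 and 3, and 441 (3.56%) with higher values in numbers 2 and 4. Since the split was selected on these values, nothing is read from those shares beyond their use as a background for the gene lists. Standard errors, and the p-values of the test between subpopulations, rest on the spread within the sets, which the choice of this split may have made small, so both may be too small. At 2-fold the counts were 81 and 84, and with no fold limit 2033 and 2283. The rule itself requires that the sets do not overlap within a subpopulation. Where a lack of overlap is stated below for a parted gene, it describes the call and adds no support to it. The median set difference over all genes was -0.0064. Near the limit of the rule, Rbl1 and Cdt1 lay just inside at 0.59, and Dhcr7 lay just outside at 0.55.

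The T cell genes Cd3e, Cd8a and Cd4 read alike in both sets. Cd3e, a chain of the T cell receptor complex, lay between 12.92 and 13.16 on all 8 arrays, Cd8a, the CD8 co-receptor, between 13.81 and 13.94, and Cd4 between 5.05 and 5.44. Of 20 measured T cell identity genes and 20 effector and cytotoxic genes, 0 were parted, beside 3.16% and 3.56% of all genes. Nothing is read from counts of 0 in lists of this size. The summed intensity of the effector and cytotoxic genes did separate the sets. It was 52255 and 51630 in numbers 1 and 3 against 57167 and 57043 in numbers 2 and 4 of CD44hi. In CD44lo it was 40745 and 41862 against 43485 and 44823. That of the identity genes overlapped in CD44hi and was higher in numbers 2 and 4 in CD44lo. Cd44 lay between 11.20 and 11.73 on the CD44hi arrays and between 4.92 and 5.94 on the CD44lo arrays, in the direction of the sort. Smarcb1 lay between 6.62 and 7.12 on all arrays, and the place of its probes relative to the deletion is not known, so this level checks nothing. The 12 probe sets annotated to T cell receptor variable segments included 0 parted, and their largest set difference was 0.37 in size. Those of Trbv1 (13.95 to 14.10) and Trbv13-2 (9.98 to 10.37) gave like levels on all 8 arrays. Of the 5 probe sets of Trav9d-3, 4 were lowest on number 4 within both subpopulations, 1 of them running from 12.72 to 13.65. The Y-linked Eif2s3y was at 12.89 to 13.18 and Xist, the RNA of the inactive X, at 5.51 to 6.32 on all arrays, and 0 of 4 sex-linked genes were parted, although their summed intensity was 8623 to 9107 in numbers 1 and 3 and 10120 to 10987 in numbers 2 and 4.

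**Figure D1:**
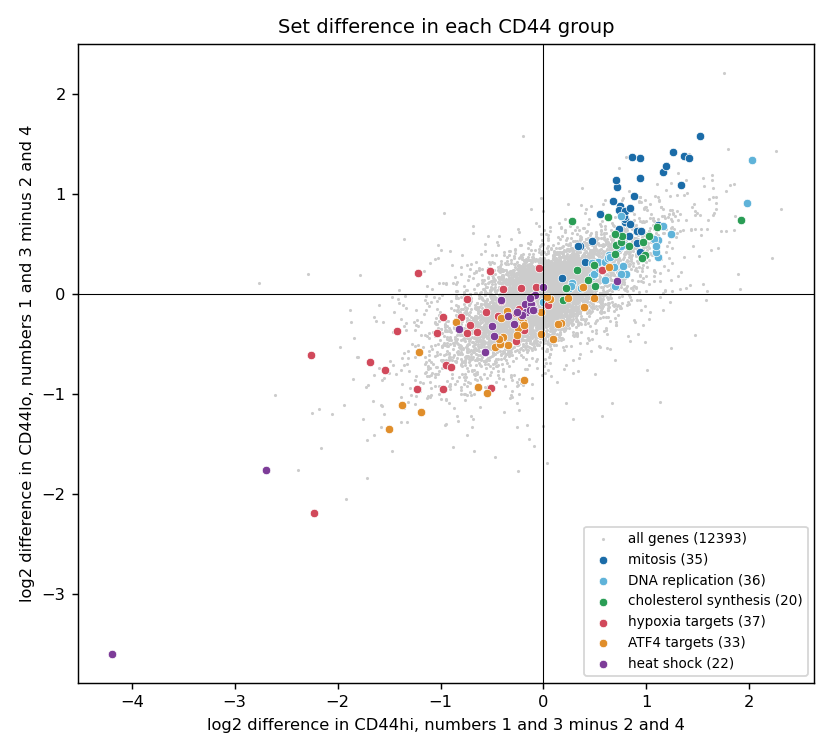
The set difference (numbers 1 and 3 minus 2 and 4, log2) of each of 12393 genes is plotted in CD44hi on the horizontal axis and in CD44lo on the vertical axis, with members of 6 gene lists in colour. Mitosis, DNA replication and cholesterol genes lie mostly at the upper right, hypoxia and ATF4 target genes mostly at the lower left, and Hspa1a lies at -4.19 in CD44hi and -3.60 in CD44lo.

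Genes of mitosis were the list with the largest share of parted members. Of 35 measured, 30 were parted with higher values in numbers 1 and 3 and 0 the other way, beside 3.16% and 3.56% of all genes. All 35 set differences were positive, with a median of 0.80 (0.84 in CD44hi and 0.83 in CD44lo). Per-array values below are given for numbers 1 and 3 against numbers 2 and 4, first in CD44hi and then in CD44lo. Plk1, the kinase that drives mitotic entry and spindle assembly, read 10.26 and 10.25 against 8.76 and 8.72 in CD44hi, and 10.09 and 10.11 against 8.54 and 8.50 in CD44lo. The 4 arrays of numbers 1 and 3 all lay above the 4 of numbers 2 and 4, with a set difference of 1.55 (SE 0.014), or 2.93-fold. Aurka, the centrosome kinase that activates Plk1, read 11.91 and 11.88 against 10.65 and 10.63 in CD44hi, and 11.70 and 11.74 against 10.29 and 10.31 in CD44lo. Here too no array of one set reached the other, and the set difference was 1.34 (SE 0.014).

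The parted mitotic genes covered successive steps of division. Ube2c, the ubiquitin-conjugating enzyme of the anaphase-promoting complex, read 13.11 and 12.99 against 11.85 and 11.42 in CD44hi, and 12.83 and 12.72 against 11.63 and 11.20 in CD44lo. Cdc20, the activator of that complex, read 12.31 and 12.44 against 11.32 and 11.56, and 12.29 and 12.26 against 10.90 and 10.93. Neither gene's sets overlapped, and their set differences were 1.39 (SE 0.16) and 1.15 (SE 0.069). Among kinesins, Kif20a, which acts in cytokinesis, parted by 1.37 (SE 0.051) and Kif2c, which shortens microtubules at kinetochores, by 1.19 (SE 0.057). Aurkb, the kinase of the chromosomal passenger complex, parted by 1.22, Cenpa, the histone of centromeres, by 1.12, and Ccnb2, a mitotic cyclin, by 1.05. Cdca3, a trigger of mitotic entry, parted by 1.24 with the probe set used, and its 2 other probe sets gave 0.09 and -0.05. Those 2 read 3.62 to 4.01 on all arrays, near the median of the Bacillus control probe sets (3.95 to 4.13). They therefore bear little on the call, though averaged over its probe sets Cdca3 was not parted (0.42). The 5 members that were not parted still had positive differences of 0.17 to 0.50. They were Kif23 (0.50), Top2a (0.42), Mki67 (0.41), Pttg1 (0.36) and Bub3 (0.17).

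The element TTTGAA is a core of the cell cycle genes homology region, a site in promoters of late cell cycle genes. On either strand of the 250 bases before the start it occurred in 8 of 24 parted mitotic genes with a RefSeq promoter (GRCm38.p6), in 11 of 29 measured mitotic genes with one, and in 18.3% of 27025 genes. The promoter of Cdc20 (chr4:118437344-118437593, minus strand) is shown 5′ to 3′ because its match, in capitals, lies 18 bases before the start.
Cdc20: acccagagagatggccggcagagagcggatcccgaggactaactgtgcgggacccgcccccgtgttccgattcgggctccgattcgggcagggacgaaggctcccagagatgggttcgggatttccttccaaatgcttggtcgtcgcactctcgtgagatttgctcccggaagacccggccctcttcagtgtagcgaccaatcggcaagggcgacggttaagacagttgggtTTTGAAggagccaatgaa

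DNA replication genes were higher in the same arrays, by less. Of 36 measured, 13 were parted with higher values in numbers 1 and 3, beside 3.16% of all genes, and 0 the other way. The median set difference was 0.49, larger in CD44hi (0.67) than in CD44lo (0.32), and 34 members were positive. Orc1, the subunit of the origin recognition complex that loads helicases, read 10.75 and 10.83 against 8.97 and 8.56 in CD44hi, and 10.19 and 10.15 against 8.91 and 8.74 in CD44lo. The sets did not overlap in either subpopulation, and the set difference was 1.68 (SE 0.11). Cdc6, the loading factor that acts with Orc1, read 11.43 and 11.40 against 9.47 and 9.42 in CD44hi, and 11.40 and 11.40 against 10.48 and 10.49 in CD44lo. Arrays 1 and 3 were alike across the subpopulations, and arrays 2 and 4 were lower by 1.97 in CD44hi and by 0.92 in CD44lo. That difference between subpopulations was 1.06 (SE 0.10, limma interaction adjusted p = 0.0097, or 0.066 with a replicate block, a term for each number). Cdc45 (0.92), Mcm2 (0.83), Mcm5 (0.81) and Gins1 (0.77), which form the replicative helicase, were parted as well. So were Rfc5 (0.92), of the clamp loader, Chaf1b (0.76), a chaperone that places histones on new DNA, Mcm10 (0.75), which activates the helicase, and Cdc25a (0.79), the phosphatase that releases the S phase kinases. Across the mitosis and replication lists together 43 of 71 genes were parted with higher values in numbers 1 and 3, and 69 were positive.

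An E2F site of the form TTTCGCGC, on either strand, occurred before the start of Orc1 and Mcm5 among 11 parted replication genes with a promoter, in 5 of 29 measured replication genes with one, and in 0.30% of all genes. The promoter of Orc1 (chr4:108579204-108579453, plus strand) holds it in reverse, 27 bases before the start.
Orc1: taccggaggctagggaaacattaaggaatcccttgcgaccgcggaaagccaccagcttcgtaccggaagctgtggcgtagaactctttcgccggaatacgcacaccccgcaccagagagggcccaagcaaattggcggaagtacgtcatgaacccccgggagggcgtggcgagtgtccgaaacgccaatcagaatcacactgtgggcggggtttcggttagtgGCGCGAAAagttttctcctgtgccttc

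Genes that restrain the cell cycle were divided. Of 27 measured inhibitors and quiescence genes, 4 were parted with higher values in numbers 1 and 3. Another 3 were parted with higher values in numbers 2 and 4. Those shares of 14.8% and 11.1% stand beside 3.16% and 3.56% of all genes. The members of the INK4 family, inhibitors of the G1 kinases Cdk4 and Cdk6, lay on opposite sides. Cdkn2b read 8.31 and 7.98 against 9.79 and 10.01 in CD44hi, and 8.04 and 8.31 against 9.42 and 9.43 in CD44lo, which is 2.83-fold higher in numbers 2 and 4. Cdkn2c read 10.31 and 10.24 against 9.30 and 8.64, and 10.38 and 10.32 against 9.27 and 9.01, which is 1.26 (SE 0.18) higher in numbers 1 and 3. Cdkn2a was 0.78 higher in numbers 1 and 3. In all 3 genes the sets did not overlap, which the rule requires of parted genes. Txnip, which binds thioredoxin and restrains glucose uptake, had the largest difference of all parted genes in numbers 1 and 3. It read 10.52 and 10.44 against 9.06 and 8.39 in CD44hi, and 10.91 and 10.59 against 8.73 and 8.34 in CD44lo. Its set difference of 1.99 (SE 0.21) was 1.51 over the mean of its probe sets. Kdm5b, a histone H3K4 demethylase, was 0.89 higher in numbers 2 and 4. Ccng2, a cyclin of non-dividing cells, was 0.64 higher there, but not parted without the array CD44hi 2 (0.58) or with its most variable probe set.

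**Figure D2:**
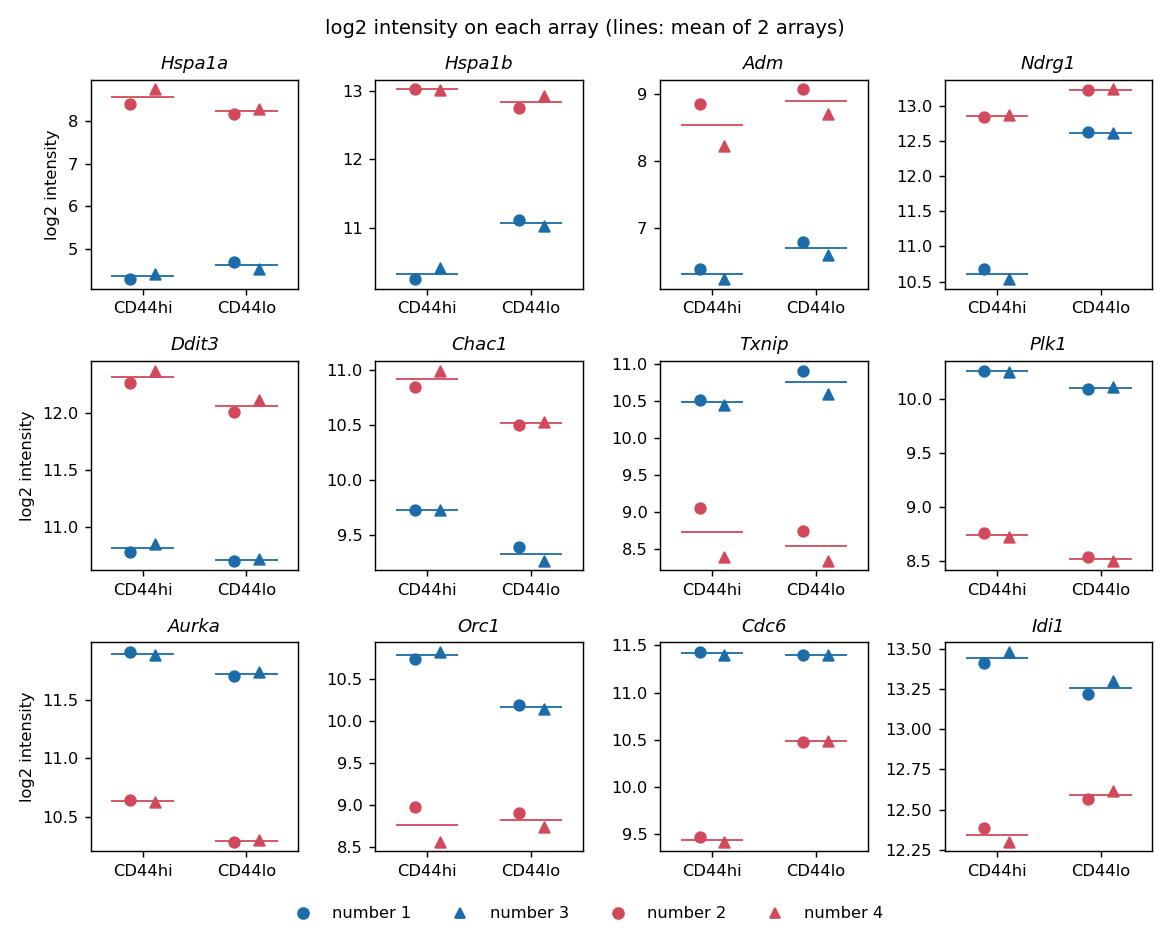
The log2 intensity of 12 genes is plotted on each of the 8 arrays, by CD44 group on the horizontal axis, with numbers 1 and 3 in blue, numbers 2 and 4 in red, and a line at the mean of each pair of arrays. Each panel has its own vertical axis, which does not start at 0, and in every panel the red and blue points of a CD44 group do not overlap.

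Cholesterol synthesis had the largest share of parted members among the metabolic lists. Of 20 measured members, 12 were parted with higher values in numbers 1 and 3, beside 3.16% of all genes, and 0 the other way. All 20 were positive, and the median was 0.64 (0.70 in CD44hi and 0.49 in CD44lo). The parted genes ran from the mevalonate steps to the last sterol steps. Idi1, the isomerase that makes dimethylallyl diphosphate, read 13.41 and 13.48 against 12.38 and 12.30 in CD44hi, and 13.22 and 13.30 against 12.56 and 12.62 in CD44lo. Its sets were apart in both subpopulations, by 0.89 on average (SE 0.037). Mvd (0.80) and Mvk (0.69) act before it on mevalonate, and Sqle (0.66) and Lss (0.70) make and close squalene epoxide. Nsdhl (0.68), Ebp (0.65), Sc5d (0.74) and Hsd17b7 (1.33, SE 0.41) act on the sterol ring system, and Stard4 (0.66) carries cholesterol between membranes. Hsd17b7 was parted with the widest spread, from 10.01 and 9.52 against 8.53 and 7.17 in CD44hi to 9.49 and 9.20 against 8.94 and 8.26 in CD44lo. Ebp fell under the fold limit without CD44hi 2 (0.56), CD44lo 1 (0.58) or CD44lo 2 (0.57), and Stard4 without CD44hi 4 (0.53). Averaged over its probe sets, Lss was at 0.48 and not parted. Hmgcs1, an early enzyme of the pathway, was at 0.28 and not parted, and Srebf2, the sterol-sensing transcription factor, was at 0.07. The sterol element TCACNCCAC, on either strand, occurred before 1 of 16 members with a promoter, before 0 of 10 parted ones and before 1.22% of all genes.

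A part of the fatty acid genes was higher in numbers 1 and 3. Of 19 measured, 4 were parted with higher values in numbers 1 and 3, beside 3.16% of all genes, and 0 the other way. The median over the list was 0.22. Elovl6, the elongase of palmitate, read 10.62 and 10.78 against 9.06 and 9.55 in CD44hi, and 10.78 and 10.93 against 9.86 and 9.82 in CD44lo. Fasn, the fatty acid synthase, read 11.74 and 11.95 against 10.47 and 10.74, and 11.50 and 11.64 against 10.97 and 10.84. No array of numbers 2 and 4 reached the lowest of numbers 1 and 3 for either gene, and the differences were 1.21 (SE 0.13) and 0.95 (SE 0.098). Fads1, a desaturase (1.10), and Acss2, which makes acetyl-CoA from acetate (1.00), were parted too. The 15 others lay between -0.22 and 0.47.

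Genes that supply nucleotides also read higher in numbers 1 and 3. Of 26 measured genes of serine, folate and nucleotide metabolism, 9 were parted in that direction, beside 3.16% of all genes, and 0 in the other. Of the 26 genes 24 were positive, with a median of 0.35. Tk1, the thymidine kinase of S phase, read 12.93 and 12.91 against 11.14 and 11.35 in CD44hi, and 12.77 and 12.73 against 11.78 and 11.90 in CD44lo. The sets did not overlap, and its difference of 1.29 (SE 0.064) was the largest of the list with the probe set used for each gene. Rrm1 (0.86) and Rrm2 (0.67), the subunits of ribonucleotide reductase, parted with all their probe sets in the same direction, and another probe set of Rrm2 gave 2.35. Dut, which removes dUTP, parted by 0.83, and Ppat, the first step of purine synthesis, by 0.89 with a wide spread (SE 0.36). Tyms (0.85), the thymidylate synthase, and Shmt1 (0.75), a serine hydroxymethyltransferase, were not parted when their probe sets were averaged (0.38 and 0.51). The 2 other probe sets of Tyms were dim, at 3.95 to 5.05 on all arrays. Cad (0.65), the enzyme that starts pyrimidine synthesis, was not parted without CD44hi 2 (0.35) or CD44hi 3 (0.56), Ppat without CD44hi 4 (0.57), and Dck (0.60), a nucleoside kinase, without CD44hi 4 (0.52) or CD44lo 2 (0.51). The other 2 probe sets of Dck each gave more than Tk1, the smaller of them 1.47, and that of Rrm1 gave 1.36.

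The remaining growth lists held few parted genes. Nothing is read from 1 or 2 parted members of a list beside the 3.16% and 3.56% of all genes. Pentose phosphate and glutathione genes had 2 of 18 in numbers 1 and 3 (Txnrd1, a thioredoxin reductase, at 0.96, and Pgd, of the oxidative pentose phosphate path, at 0.62) with a median of 0.29. Pgd was not parted without CD44hi 2 (0.56). Oxidative phosphorylation genes had 2 of 46, with a median of 0.17. Ndufa4, a subunit of cytochrome c oxidase, read 12.78 and 12.60 against 11.95 and 11.35 in CD44hi, and 12.68 and 12.39 against 11.63 and 11.63 in CD44lo, a difference of 0.97 (SE 0.17). Cytochrome c (Cycs) parted by 0.62, but not without CD44hi 4 (0.56) or over the mean of its probe sets (0.51). Ribosome biogenesis and Myc target genes had 3 of 38 (Polr1b, of RNA polymerase I, at 1.15, Ppat at 0.89 and Nop16 at 0.84, the last not parted over the mean of its probe sets at 0.56), with a median of 0.08. Ribosomal protein genes had 1 of 24 in numbers 2 and 4, Rpl12 at 0.65 higher there. The 25 genes of the citric acid cycle included 0 parted.

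**Figure D3:**
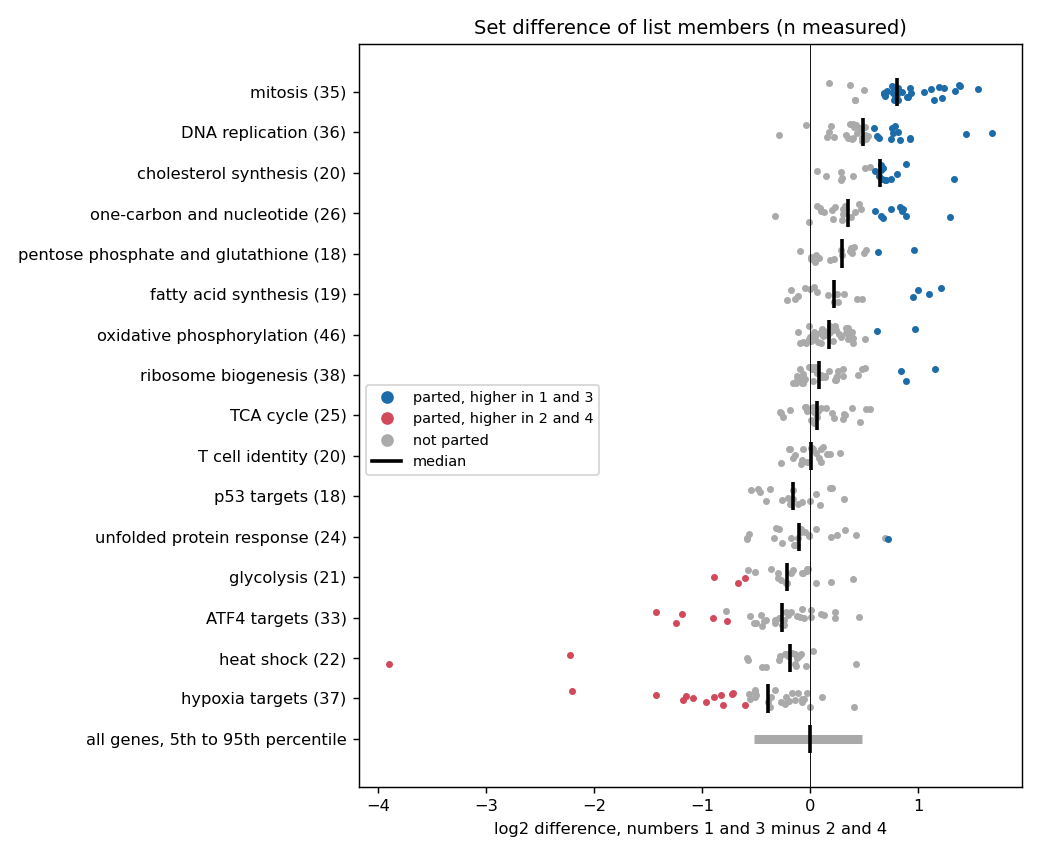
Each point is the set difference (numbers 1 and 3 minus 2 and 4, log2, horizontal axis) of a measured member of the list named at the left, with parted members in blue or red, the others in grey and the list median as a black line. The bottom bar spans the 5th to 95th percentile of all genes (-0.52 to 0.48), and the mitosis points all lie above 0 while 34 of 37 hypoxia points lie below it.

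Genes of the hypoxia response were higher in numbers 2 and 4. Of 37 measured, 12 were parted in that direction, beside 3.56% of all genes, and 0 in the other. The median was 0.39 higher in numbers 2 and 4, with 0.56 in CD44hi and 0.23 in CD44lo. Adm, which encodes the vasodilator peptide adrenomedullin, read 6.39 and 6.24 against 8.85 and 8.23 in CD44hi, and 6.80 and 6.61 against 9.08 and 8.71 in CD44lo. Arrays 2 and 4 were above arrays 1 and 3 throughout, by 2.21 (SE 0.19), or 4.62-fold. Ndrg1, a stress-responsive gene of growth arrest and differentiation, read 10.68 and 10.53 against 12.84 and 12.87 in CD44hi, and 12.62 and 12.62 against 13.22 and 13.24 in CD44lo. Its sets were apart in both subpopulations, but the gap was 2.26 in CD44hi and 0.61 in CD44lo. That difference between subpopulations was 1.65 in size (SE 0.11, limma interaction adjusted p = 0.0024, and 0.033 with the replicate block), and all 5 of its probe sets were higher in numbers 2 and 4.

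The other parted hypoxia genes act in matrix, chromatin, vessel growth and sugar metabolism. P4ha1, the prolyl hydroxylase of collagen, read 10.62 and 10.65 against 12.26 and 12.09 in CD44hi, and 11.29 and 11.24 against 12.08 and 11.97 in CD44lo, a gap of 1.15 (SE 0.051). Vegfa, the vascular growth factor, read 8.50 and 8.28 against 9.44 and 9.30, and 8.60 and 8.52 against 9.52 and 9.50, a gap of 0.96 (SE 0.068). In both genes the sets were apart in each subpopulation. The histone demethylase Kdm4b (1.18), the glycogen branching enzyme Gbe1 (1.09) and the collagen lysyl hydroxylase Plod2 (0.72) were parted in the same direction, as was Kdm3a (0.71), another histone demethylase. Ankzf1 (0.83) and Zfp395 (0.81) complete the list with Pfkfb3 and Pdk1. Pfkfb3, which makes the allosteric activator of glycolysis, was 0.90 higher in numbers 2 and 4, with 1.42 in CD44hi and 0.37 in CD44lo. Over the mean of its probe sets it was at 0.54 and not parted, and its other probe set read 5.95 to 6.48 on all arrays. Pdk1, the kinase that shuts pyruvate dehydrogenase, was 0.61 higher, with 0.98 in CD44hi and 0.23 in CD44lo. It fell below the limit without CD44hi 3 (0.58) or CD44lo 2 (0.58). On the scale of numbers 1 and 3 minus 2 and 4, Hif1a itself was at 0.11, and the 25 members that were not parted lay between -0.56 and 0.40.

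Glycolysis genes proper showed less of this. Of 21 measured, 3 were parted with higher values in numbers 2 and 4, beside 3.56% of all genes, and 0 the other way. They were Pfkfb3, Pdk1 and Eno2, the neuronal enolase, at 0.67, and the first 2 of these are also members of the hypoxia list. The list median was 0.22 higher in numbers 2 and 4, with 0.31 in CD44hi and 0.09 in CD44lo.

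The core of the hypoxia response element, ACGTG or GCGTG on either strand, occurred in the 250 bases before the start of 29 of 31 hypoxia genes with a promoter, 7 of 8 parted ones and 41.5% of all genes, so it is a common pair of words. ACGTG also lies within the E-box CACGTG, which occurred before 6.86% of all genes and before 2 of 32 ribosome biogenesis and Myc target genes. Adm (chr7:110627407-110627656, plus strand) and P4ha1 (chr10:59323046-59323295, plus strand) are shown with their 2 and 3 matches in capitals, since these genes parted clearly in both subpopulations.
Adm: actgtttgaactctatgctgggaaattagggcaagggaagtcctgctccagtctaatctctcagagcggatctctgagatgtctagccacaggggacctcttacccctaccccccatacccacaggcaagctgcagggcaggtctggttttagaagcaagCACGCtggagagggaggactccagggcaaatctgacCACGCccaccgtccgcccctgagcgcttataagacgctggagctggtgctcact
P4ha1: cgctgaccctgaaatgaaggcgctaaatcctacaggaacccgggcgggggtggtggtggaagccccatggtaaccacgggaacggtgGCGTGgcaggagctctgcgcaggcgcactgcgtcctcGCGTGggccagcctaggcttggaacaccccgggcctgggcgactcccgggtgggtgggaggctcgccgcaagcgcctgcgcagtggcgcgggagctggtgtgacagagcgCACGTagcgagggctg

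The inducible heat shock genes Hspa1a and Hspa1b had the largest differences among the genes named here. They were the 2 parted members of 22 measured in the chaperone list, both with higher values in numbers 2 and 4. That is 9.09%, beside 3.56% of all genes, and nothing is read from a count of 2. Of the 22 members, 20 had differences toward higher values in numbers 2 and 4, with a list median of 0.19. The count of 2 was 4 without CD44lo 3 and 2 or 3 without any other single array, 4 over the mean of probe sets and 5 with the most variable probe set of each gene. Hspa1a, an inducible Hsp70, read 4.30 and 4.44 against 8.39 and 8.73 in CD44hi, and 4.71 and 4.54 against 8.16 and 8.28 in CD44lo. Arrays 1 and 3 lay near the median of the Bacillus control probe sets (3.95 to 4.13), so the gap of 3.90 (SE 0.11) is uncertain in size, and it was 2.41 after 50 was added to each intensity. Hspa1b read 10.25 and 10.41 against 13.02 and 13.02 in CD44hi, and 11.12 and 11.03 against 12.75 and 12.93 in CD44lo. All 4 arrays of numbers 2 and 4 lay above all 4 of numbers 1 and 3, by 2.23 (SE 0.063), and its 2 other probe sets gave 2.82 and 3.05. The 2 genes are near-identical copies, so probes may read both and their values are not independent. Hspb1, a small heat shock protein, was 0.57 higher in numbers 2 and 4 and not parted.

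The heat shock element was searched as GAANNTTC on either strand. It occurred before the start of both parted genes, of 7 of 19 chaperone genes with a promoter, and of 7.73% of all genes. The promoters of Hspa1a (chr17:34972157-34972406, minus strand) and Hspa1b (chr17:34959239-34959488, minus strand) are shown because they are so alike. They differed at 3 of 250 positions, and the match in capitals lies 104 bases before the start in both.
Hspa1a: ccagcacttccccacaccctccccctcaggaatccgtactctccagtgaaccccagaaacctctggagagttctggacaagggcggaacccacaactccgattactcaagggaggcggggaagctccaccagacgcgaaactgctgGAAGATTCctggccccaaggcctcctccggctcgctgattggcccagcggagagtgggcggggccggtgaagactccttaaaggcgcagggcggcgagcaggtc
Hspa1b: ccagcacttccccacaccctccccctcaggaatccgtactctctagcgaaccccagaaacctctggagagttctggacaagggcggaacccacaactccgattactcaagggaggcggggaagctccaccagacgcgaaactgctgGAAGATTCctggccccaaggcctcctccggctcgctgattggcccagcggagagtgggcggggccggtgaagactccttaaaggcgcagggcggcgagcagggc

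The parted ATF4 targets were 3 transcription factors, a pseudokinase and an enzyme that degrades glutathione. Of 33 measured, 5 were parted with higher values in numbers 2 and 4, beside 3.56% of all genes, and 0 the other way. There were 26 differences toward higher values in numbers 2 and 4, with a list median of 0.26. Ddit3, the pro-apoptotic factor CHOP, read 10.78 and 10.85 against 12.27 and 12.38 in CD44hi, and 10.71 and 10.72 against 12.01 and 12.12 in CD44lo. Chac1, that enzyme, read 9.73 and 9.73 against 10.85 and 10.99, and 9.40 and 9.27 against 10.50 and 10.53. For both genes the sets did not overlap, with gaps of 1.43 (SE 0.043) and 1.19 (SE 0.049). The gap in CD44lo was 1.35 for Ddit3 and 1.18 for Chac1, near that in CD44hi. Trib3, a pseudokinase induced by ATF4 and CHOP, was 1.24 higher (SE 0.097), Atf3, a stress-induced repressor, 0.90, and Atf5, a related factor, 0.77. Atf3 was no longer parted after 50 was added to each intensity (0.57). Atf4 itself was 0.10 higher, Asns, the asparagine synthetase, 0.29 higher, and Cars, a transfer RNA synthetase, 0.78 higher without being parted.

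An amino acid response element of the form TTGCATCA, on either strand, occurred before the start of Atf3 and Chac1 among the 5 parted members, of 6 of 28 members with a promoter and of 0.92% of all genes. The promoter of Chac1 (chr2:119350992-119351241, plus strand) holds it 193 bases before the start.
Chac1: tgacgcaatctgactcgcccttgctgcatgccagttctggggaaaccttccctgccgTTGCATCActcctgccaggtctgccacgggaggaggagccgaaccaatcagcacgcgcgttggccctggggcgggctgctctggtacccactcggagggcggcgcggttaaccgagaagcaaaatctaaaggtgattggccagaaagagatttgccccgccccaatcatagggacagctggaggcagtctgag

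The unfolded protein response list held 24 measured members, of which 17 had differences toward higher values in numbers 2 and 4. The median difference was 0.10 in that direction, at 0.23 in CD44lo and -0.03 in CD44hi. Among them 1 was parted (4.17%, near the 3.16% of all genes). It was Edem1, which directs misfolded proteins to degradation, at 0.72 higher in numbers 1 and 3. Over the mean of its probe sets Edem1 was at 0.50 and not parted. On the scale of numbers 1 and 3 minus 2 and 4, Sdf2l1 (0.69) and Xbp1 (-0.59) passed the fold limit without being parted. Xbp1 was thus the higher in numbers 2 and 4, and Sdf2l1 in numbers 1 and 3. With 0 members parted toward numbers 2 and 4 on all arrays, 1 or 2 were when a single array was left out. The endoplasmic reticulum stress response element occurred before 10 of 21 members with a promoter and before 0.13% of all genes.

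**Figure D4:**
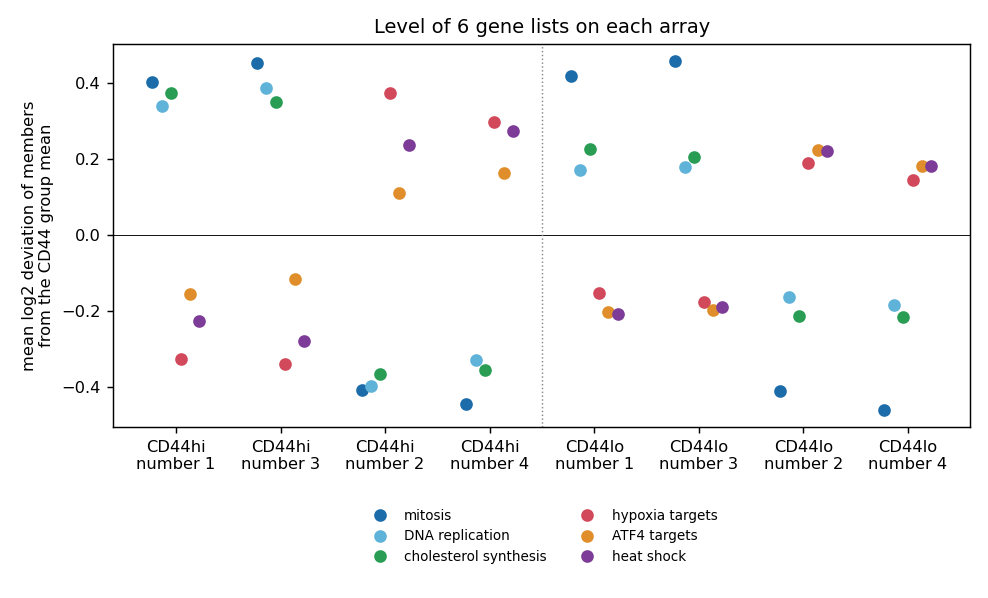
For each of the 8 arrays (horizontal axis) the vertical axis gives the mean deviation, on the log2 scale, of the members of 6 gene lists from their mean over the CD44 group. Mitosis, DNA replication and cholesterol lists lie above 0 on all 4 arrays of numbers 1 and 3 and the 3 stress lists lie above 0 on all 4 arrays of numbers 2 and 4.

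The other regulatory lists held at most 3 parted genes each. Among all genes 3.16% were parted toward numbers 1 and 3 and 3.56% toward numbers 2 and 4. Nothing is read from 1 or 2 parted members of these lists beside those shares. Immediate-early genes had 3 of 26 parted, all higher in numbers 2 and 4 (Atf3 at 0.90, Fosb at 0.80 and Jun at 0.78). Of 28 measured interferon-stimulated genes, Mx1 was 1.22 and Ifit1 0.82 higher in numbers 2 and 4 (7.14%). Usp18, which dampens interferon signalling, was 0.80 higher in numbers 1 and 3 (3.57%). Usp18 was not parted after 50 was added (0.56). The NF-kappaB list had 1 of 18, Bcl3, a nuclear partner of its subunits, at 0.77 in numbers 1 and 3, and the NRF2 list 1 of 19, Txnrd1. The lists of p53 targets (18 genes), glucocorticoid targets (14), autophagy and lysosome (29), Bcl2-family apoptosis genes (17) and metallothioneins and zinc transporters (5) held 0 parted genes. Of the p53 targets 13 were higher in numbers 2 and 4, with a median of 0.16, and the median of the glucocorticoid targets was 0.20 higher there (0.24 in CD44hi and -0.03 in CD44lo). The count of parted glucocorticoid targets was 2 without CD44hi 2 or CD44lo 2, and that of p53 targets was 1 without CD44hi 2. Over all pathway lists together, 81 of 591 genes were parted with higher values in numbers 1 and 3 and 28 with higher values in numbers 2 and 4.

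The largest differences also included genes outside these lists. In numbers 1 and 3 they were, beside Txnip, Orc1, Plk1 and Cdc6, the translesion polymerase Polh (1.85, SE 0.37), the chromatin protein Hmgb3 (1.62, SE 0.070), the taurine transporter Slc6a6 (1.58), Lrr1 (1.48), a substrate receptor that unloads the helicase, the cytokine Tgfb1 (1.45) and Paqr4 (1.42). Tgfb1 read 7.13 and 7.29 against 5.31 and 5.49 in CD44hi, and 7.44 and 7.47 against 6.41 and 6.31 in CD44lo, so its sets were apart at a low level. Slc6a6 had 2 other probe sets at 0.00 and 0.07, both dim, at 5.12 to 6.08 on all arrays. Over the mean of its probe sets Slc6a6 was not parted (0.55).

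In numbers 2 and 4 the largest differences, beside Hspa1a, Hspa1b and Adm, were in Ldb3 (2.07), of the muscle Z-disc, Fgf11 (1.98), an intracellular growth factor homologue, the macrosialin Cd68 (1.85), Mipol1 (1.81), Angptl6 (1.78), an angiopoietin-like factor, Carf (1.72), and the matrix protein Postn (1.67). Angptl6 read 10.12 and 10.10 against 11.69 and 11.96 in CD44hi, and 10.29 and 10.36 against 12.16 and 12.17 in CD44lo, with no overlap. The gap of Mipol1 was 2.61 in CD44hi and 1.01 in CD44lo. Mipol1 lay at 4.82 to 5.09 in numbers 1 and 3, under the 25th percentile of all values (5.26), so these sizes are uncertain. Other probe sets of Ldb3 gave -0.12 and 1.55, and the other of Fgf11 gave 0.03, in the direction of the call. Those at -0.12 and 0.03 were dim, reading 4.71 to 5.32 and 4.76 to 5.09 on all arrays. Of 95 named parted genes 46 had several probe sets, and in 43 all of them had the same sign. In 11 of the 46 another probe set showed under 50% of the difference.

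Markers of other cell types were parted in 5 cases, no larger a share than among all genes. With higher values in numbers 1 and 3 the share was 1.75% (3.16% of all genes), and in numbers 2 and 4 it was 2.63% (3.56% of all genes). Of 114 measured markers of B cells, myeloid cells, NK cells, red cells, stroma, endothelium and epithelium, 2 were parted with higher values in numbers 1 and 3 (Cdh1, the epithelial cadherin, at 0.87, and Cd74, the MHC class II invariant chain, at 0.73) and 3 in numbers 2 and 4 (Cd68, Postn and Zbtb46, the last at 0.68). Cd68 read 8.01 and 8.20 against 10.24 and 10.29 in CD44hi, and 8.20 and 8.23 against 9.75 and 9.76 in CD44lo. The summed intensity of the 17 macrophage and monocyte markers was 804 to 864 in numbers 1 and 3 and 1335 to 1764 in numbers 2 and 4. Without Cd68 the other 16 summed to 507 to 571 in numbers 1 and 3 and to 477 to 559 in numbers 2 and 4. Among defining macrophage genes, Lyz2 lay at 4.92 to 5.52 and Adgre1 at 4.15 to 4.73 on all 8 arrays. Csf1r, at 5.25 to 5.73, was 0.21 higher in numbers 2 and 4, and by up to 0.44 with another probe set, and was not parted. Postn read 7.11 and 7.05 against 9.34 and 9.19 in CD44hi, and 9.92 and 10.07 against 11.25 and 11.03 in CD44lo, while the fibroblast collagens Col1a1 (5.54 to 5.76) and Col3a1 (4.56 to 5.20) did not part. The part of other cell types in these differences was not tested. The summed fibroblast markers, which include Postn, were 27212 and 28386 against 30247 and 30401 in CD44hi. In CD44lo they were 27530 and 27977 against 28201 and 28525, so the sets overlapped in neither subpopulation. The sum without Postn was not taken. The epithelial and hepatocyte markers summed to 4726 and 4994 against 2481 and 2847 in CD44hi, and in the opposite order to 2945 and 3274 against 4072 and 3699 in CD44lo. The dendritic cell markers summed to 6862 and 6674 against 5209 and 4728 in CD44hi, without overlap, and to 3378 and 3600 against 3252 and 3379 in CD44lo, where the sets overlapped. In RNA of bulk samples such as these, fewer cells of a type and less RNA per cell cannot be told apart. The calls of Zbtb46 were lost without CD44lo 4 (0.53), with 50 added (0.39) and over the mean of its probe sets (0.29), and that of Cd74 with 50 added (0.52).

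Control ratios of RNA integrity moved with the sets in part. For Actb the 3′ control probe set stood above the 5′ one by a log2 ratio of 0.47 and 0.53 against 0.79 and 0.71 in CD44hi, and 0.38 and 0.44 against 0.61 and 0.56 in CD44lo. The ratio was thus higher in numbers 2 and 4 within each subpopulation. That of Tfrc read 1.92 and 2.02 against 3.26 and 3.83 in CD44hi, and 1.80 and 2.44 against 3.11 and 3.26 in CD44lo, again without overlap. The ratio of Gapdh overlapped, with 0.79 and 0.84 against 0.88 and 0.76, and 0.68 and 0.73 against 0.72 and 0.65. The medians of the hybridisation spikes (12.01 to 12.32) and of the Bacillus probe sets (3.95 to 4.13) did not separate the sets. The part of these ratios in the differences above was not tested.

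**Figure D5:**
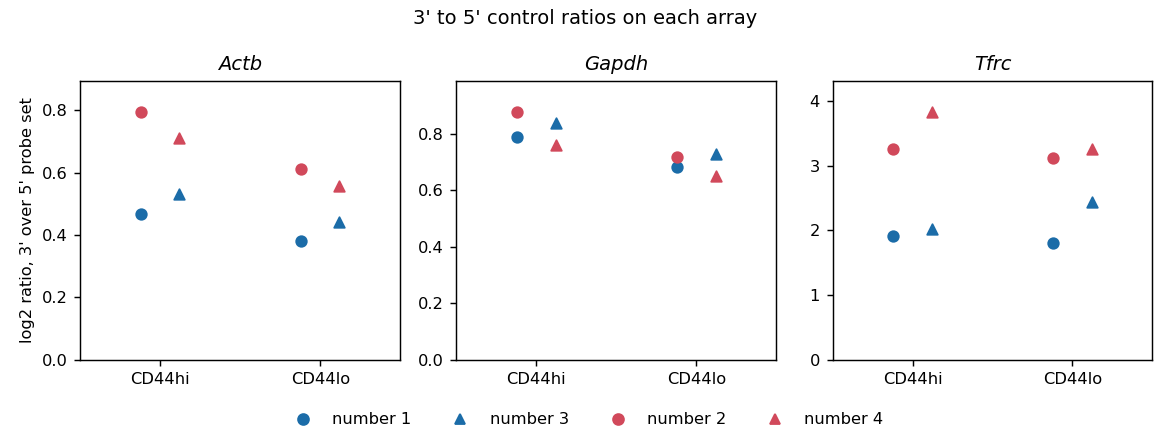
The vertical axis (from 0) gives the log2 ratio of 3′ over 5′ control probe sets for Actb, Gapdh and Tfrc on each array, by CD44 group on the horizontal axis, with numbers 1 and 3 in blue and numbers 2 and 4 in red. The red points lie above the blue ones within each CD44 group for Actb and Tfrc, and they overlap for Gapdh.

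Whether the sets differed by the same amount in both subpopulations was tested, with an error taken from the spread within the sets, as above. The interaction of set and CD44 group passed an adjusted p of 0.05 (limma with Benjamini-Hochberg adjustment) for 188 genes, or 1.52% of 12393. In 157 of these the set difference was the larger in CD44hi. With the replicate block 12 genes passed, all of them among the 188. The count also rested on single arrays. It was 12 without CD44hi 1, 17 without CD44hi 3, 16 without CD44lo 1, 9 without CD44lo 2, 14 without CD44lo 3 and 15 without CD44lo 4, against 279 without CD44hi 2 and 399 without CD44hi 4. Among the 833 parted genes, 669 had the larger difference in CD44hi, as had 7739 of all 12393 genes, and the median size in the parted genes was 0.93 in CD44hi and 0.64 in CD44lo.

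Genes that passed the interaction test included members of the lists whose set difference turned round between subpopulations. Fosl2, an AP-1 transcription factor, read 7.42 and 7.46 against 9.62 and 9.84 in CD44hi, but 7.98 and 8.14 against 7.91 and 7.81 in CD44lo. Only the CD44hi arrays 2 and 4 were high, and the subpopulations differed by 2.49 in size (SE 0.15, limma interaction adjusted p = 0.0013, and 0.027 with the block). Prf1, the pore-forming protein of cytotoxic T cells, read 11.72 and 11.64 against 10.24 and 10.18 in CD44hi, and 11.46 and 11.48 against 11.93 and 11.83 in CD44lo. With this probe set it was low on the CD44hi arrays 2 and 4, with a difference between subpopulations of 1.88 (SE 0.11, limma adjusted p = 0.0013, and 0.027 with the block). The other probe set of Prf1 did not show this, with 9.89 and 9.89 against 10.20 and 10.08 in CD44hi, and 10.17 and 10.17 against 10.25 and 10.37 in CD44lo. Over the mean of both the difference between subpopulations was 0.88 (limma adjusted p = 0.016). Fosl2, Prf1 and Ndrg1 passed under every alternative run for them.

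The hypoxia gene Bnip3, a mitophagy receptor, read 10.70 and 10.57 against 11.91 and 11.80 in CD44hi, and 11.82 and 11.80 against 11.56 and 11.62 in CD44lo. Its CD44hi arrays 1 and 3 were the low ones, and the subpopulations differed by 1.43 in size (limma adjusted p = 0.0056, 0.056 with the block and 0.053 without CD44lo 2). Slc16a3, the lactate exporter, read 8.95 and 8.99 against 9.48 and 9.60 in CD44hi, and 10.18 and 10.19 against 9.67 and 9.70 in CD44lo, so its sets lay in opposite order (limma adjusted p = 0.011, and 0.066 with the block). Of 37 hypoxia genes 7 passed the test, against 0 of 33 ATF4 genes, 0 of 35 mitosis genes, 2 of 36 replication genes and 1.52% of all genes. These counts were not themselves compared, and they rest on the fit without the block. With the block 12 of the 188 genes passed. Among the hypoxia genes named here Ndrg1 was 1 of those, and Bnip3, P4ha1 and Pdk1 were not. Klf4, a quiescence factor of T cells, and H2-Ab1, an MHC class II chain, also lay in opposite order in the subpopulations, with 0.69 higher in numbers 2 and 4 in CD44hi and 0.61 higher in numbers 1 and 3 in CD44lo for Klf4, and 1.05 and 0.35 for H2-Ab1. Both had a limma adjusted p of 0.011 and of 0.066 with the block. The other probe set of Klf4 also lay in opposite order. The 2 other probe sets of H2-Ab1 moved far less, from 5.56 to 6.21 and from 5.77 to 6.06 over all arrays.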

How the data were processed

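Per the labels' protocols, the authors labelled RNA of 8 samples with biotin, measured it on Mouse 430A 2.0 arrays (Affymetrix) and made the deposited intensity of each probe set with RMA (Robust Multichip Average). Its version is not given. RMA output is usually log2, but the deposited intensity ran from 7.61 to 36128 (array medians from 320.3 to 339.1). It was therefore taken as linear and converted to log2 without a pseudocount. RMA shrinks differences near background. There are 22690 probe sets, of which 64 are controls. The platform annotation gives 20380 of them a single symbol, 691 several and 1555 none, and a RefSeq table held 20351 of the single ones. For each of the 12393 genes the probe set of highest mean was used.

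Sets were compared by the call rule given in the results, with standard errors from the linear fit. The interaction was tested in R 4.3.3 with limma 3.58.1 (lmFit, eBayes), after a check on simulated data with 200 changed genes. The split, the gene lists and the motifs were chosen with earlier results of these data known. The genes named are the 10 largest differences in each direction, passing over clone-named genes, up to 6 parted members of each pathway list (2 where under 3 were parted, 10 in the 4 lists with the largest share), parted markers of other cell types, sex-linked genes, 8 list members with the smallest interaction p, and 5 genes that check the labels. Members that were not parted are named for their value. Plod2, Kdm3a, Ankzf1, Zfp395, Rbl1 and Cdt1 fall outside this and were picked once their values were known. The labels do not say that same-numbered arrays are pairs, and the block takes them as such. Deviations of same-numbered arrays from their CD44 group mean correlated at 0.57, 0.40, 0.53 and 0.53 for numbers 1 to 4. Those deviations contain the split chosen on these values, so the correlations cannot show a pairing. Within each set, where the split has no part, the correlation was 0.16 (1 and 3) and 0.079 (2 and 4). Alternatives were another centring or normalization, 50 added to each intensity, dim genes left out, another probe set or the mean of all, 2-fold or no fold limit, the block, an intensity trend and leaving out each array.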

Additional observations from a re-analysis of the deposited data

Results flagged for a closer look

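Among 220 groups of 4 arrays examined for a sample far from the others, 8 were found, no more than the rate of about 1 in 20 that chance gives. Each group mixes 2 CD44hi and 2 CD44lo arrays, so a difference between subpopulations can enter. All 8 fell on CD44hi arrays. In numbers 1 and 3, the array CD44hi 1 was low for Cd68 (8.01, the others 8.20 to 8.23) and for Bcl3 (9.75, the others 10.02 to 10.07). In the same set, CD44hi 3 was low for Tyms (7.76, the others 7.85 to 7.87), Uty (7.88, the others 8.34 to 8.37) and Cd3e (13.07, the others 13.15 to 13.16). In numbers 2 and 4, CD44hi 2 was low for Cad (9.55, the others 10.72 to 10.77) and high for Kdm5d (10.40, the others 9.87 to 9.94), and CD44hi 4 was high for Bcl3 (9.52, the others 9.09 to 9.11).

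The set difference (numbers 1 and 3 minus 2 and 4) differed between CD44hi and CD44lo by the limma interaction test, at an adjusted p under 0.05, for 19 named genes. The difference in CD44hi minus that in CD44lo was above 0 for Prf1 (1.88), Cdc6 (1.06), Cd74 (0.98), Shmt1 (0.79), Lrr1 (0.75) and Cdc25a (0.61). It was below 0 for Fosl2 (-2.49), Ndrg1 (-1.65), Mipol1 (-1.60), Bnip3 (-1.43), H2-Ab1 (-1.40), Klf4 (-1.30), Slc16a3 (-1.07), Postn (-1.04), Jun (-0.93), Hspa1b (-0.93), Mx1 (-0.84), P4ha1 (-0.78) and Pdk1 (-0.75). With the replicate block the adjusted p stayed under 0.05 for Fosl2, Prf1 and Ndrg1 and lay between 0.056 (Bnip3) and 0.147 (Cdc25a) for the others.

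The comparisons leave out 2246 probe sets that have no gene name or several. Of these, 57 were parted with higher values in numbers 1 and 3 and 64 in numbers 2 and 4. That is 5.39%, against 7.09% of the probe sets with a single gene.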

How the results depend on the processing

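With 8 arrays, 2 for each number set and CD44 group, the precision is limited by their number, and values near background understate differences. The counts of parted genes (392 and 441) were 81 and 84 at a 2-fold limit and 2033 and 2283 with none. Over genes above the median level, 239 were higher in numbers 2 and 4, fewer genes being tested. Leaving out each array gave 390 to 422 and 401 to 543. The interaction count of 188 was 364 with 50 added to each intensity, 312 with an intensity trend, 12 with the replicate block, and 9 to 399 when single arrays were left out, which leaves 1 array in a cell of the design, taken to vary like the others. The cause of these shifts was not tested. Of 1308 alternative values of 95 named parted genes, 1278 met the rule, 30 did not and 0 reversed, and 74 genes met it throughout. For a parted gene, leaving out an array can neither make the sets overlap nor reverse the difference. Those values could miss the rule only on the fold limit, so they add little support. Of 299 alternative values of the 19 interaction genes, 124 missed the threshold and 0 reversed. The block bears on the interaction and on no set difference.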
